A study of Mus musculus with 6 samples.

Results

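The genes described here are the clustered replication-dependent histone genes of the mouse, the mostly intronless genes that supply the bulk of nucleosomal protein during DNA replication. They were taken by symbol, as every listed gene whose name starts with Hist1h, Hist2h, Hist3h or Hist4h, which gave 69 of the 25033 genes listed. By class they were 6 H1, 19 H2A, 19 H2B, 12 H3 and 13 H4 genes. The set was put forward with the difference between the study's groups already known, so its changes between groups are given as a description. A change was computed for the 54 members with 15 or more counts over the 6 libraries. Of the other 15 members, 10 had 1 to 14 counts and 5 had no count in any library: Hist1h1t, a testis linker histone, and Hist1h2aa, Hist1h2ap, Hist1h4n and Hist2h3c1.

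RNA came from GFP+ marrow cells of C57BL/6J mice, aged 6 months in the labels, that had been transplanted with haematopoietic stem cells (HSCs). The donor HSCs had been given a control RNA (control group, 3 libraries) or an inhibitor of miR-31-5p (inhibitor group, 3 libraries), and no other allele or agent is named for either group. The labels do not say whether animals were pooled or whether each library stands for its own animal, so the p-values measure the spread between these libraries, which may be technical. Libraries were made with an mRNA kit, and the inhibition of the microRNA itself was not checked. How the kit captured mRNA is not stated in the labels, so whether poly(A) RNA was selected is not known from them.

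Nucleosomes wrap DNA around a tetramer of H3 and H4 and a pair of H2A-H2B dimers, and linker histone H1 binds the DNA that enters and leaves. Clustered histone genes are transcribed mainly in S phase. Their transcripts usually end not in a poly(A) tail but in a conserved stem-loop, which is bound by the stem-loop binding protein Slbp. The U7 snRNP takes part in cutting the 3′ end. In cells that leave the cycle, some of these genes also give longer transcripts that carry a poly(A) tail, and kits that select poly(A) RNA retain the tailed form better. In cells of blood and marrow, dividing progenitors are the main source of the stem-loop form.

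The stem-loop is shown because these transcripts usually end in it. It was sought in the GENCODE M21 transcripts (GRCm38) as a run of 16 bases in which positions 4, 10 and 13, counted from the 5′ end, could be any base, and it was found in 42 of the 69 members. There were 5 versions, given here 5′ to 3′ as DNA with the arms of the stem in capitals. A search that found no match says only that these letters are not in the annotated transcript.
version in 26 members: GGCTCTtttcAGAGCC
version in 7 members: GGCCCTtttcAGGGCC
version in 6 members: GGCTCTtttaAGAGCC
version in 2 members: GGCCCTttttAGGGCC
version in 1 member: GGCTCTttttAGAGCC
Hist1h1c, which was called higher below, and Hist1h1d, for which no change was called, both have the version of the 26.

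H2A and H2B genes often lie head to head and share the DNA between their start sites. There were 13 such pairs with at most 400 bases between the annotated starts. Of these, 3 are printed because both of their genes are measured and they hold the patterns described later: the only pair whose genes were called in opposite directions, and 2 of the 3 pairs in which both were called lower. The sequence is the plus strand between the starts, from RefSeq promoters on GRCm38.p6. Capitals mark a match, on either strand, to any of 6 motifs. These are the TATA box, spelled TATAAA, and the CCAAT box. The octamer bound by Oct factors is spelled ATTTGCAT, and the H4 promoter motif is spelled GGTCC. The H1 box is spelled AAACACA, and the E2F motif used here is spelled TTTCGCGC.
Hist1h2bq and Hist1h2ao, chr13:21810200-21810366: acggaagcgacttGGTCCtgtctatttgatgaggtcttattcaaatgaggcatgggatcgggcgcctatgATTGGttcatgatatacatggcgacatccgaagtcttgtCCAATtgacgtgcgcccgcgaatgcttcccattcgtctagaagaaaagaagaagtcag
Hist1h2ag and Hist1h2bj, chr13:22042950-22043197: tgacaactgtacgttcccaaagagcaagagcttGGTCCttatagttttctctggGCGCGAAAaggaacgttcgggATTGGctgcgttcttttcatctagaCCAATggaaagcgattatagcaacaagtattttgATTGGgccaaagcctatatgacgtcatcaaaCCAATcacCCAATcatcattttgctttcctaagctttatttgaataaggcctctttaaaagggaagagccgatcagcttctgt
Hist1h2ah and Hist1h2bk, chr13:22035644-22035820: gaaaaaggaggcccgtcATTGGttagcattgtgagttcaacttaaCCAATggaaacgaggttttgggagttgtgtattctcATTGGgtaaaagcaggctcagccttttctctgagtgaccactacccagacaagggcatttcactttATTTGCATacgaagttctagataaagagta

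The libraries held 16873188 to 21245861 counts, of which the members took 0.0129 to 0.0168%, or 2556 to 3279 counts a library. At this depth 3 counts, the upper limit that a count of 0 allows, are 0.141 to 0.178 CPM (counts scaled to a common library size), and this covers counting error only. All 8 markers of stem and progenitor cells were read in every library, but at unlike levels. They ran from 6776 to 8889 counts of Kit, the receptor for stem cell factor, down to 4 to 15 counts of Mecom. Per kilobase of transcript, however, Mpo, a granule enzyme of the neutrophil and monocyte lineage, was far above Kit (2042 against 77.5 CPM per kb in the control group), while T cell genes Cd3e and Cd3g had at most 1 count in any library. Control libraries 1 and 3 stood apart by counts of the ribosomal RNA precursor Rn45s, at 20039 and 61656 against 3667 in control 2 and 1784 to 3145 in the inhibitor libraries. In RNA from whole sorted populations, fewer cells of a type and less RNA per cell cannot be told apart.

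Most clustered histone genes were lower in the inhibitor group, while a few abundant ones were higher. Of the 54 members tested, 28 were called lower, 5 were called higher and 21 were not past the threshold (edgeR's quasi-likelihood test, adjusted p of 0.05). Of all 14369 genes tested, 18.2% were called lower and 18.9% higher. The 3 values of the inhibitor group lay below all 3 control values in 30 members and above them in 5, and over all genes tested this was so for 24.5% and 24.7%. The median log2 change of the members was -1.45, with a range from -4.39 to 1.30, and the median over all genes tested was -0.000977. The change was negative in 44 of the 54. These counts rest mostly on the group in which the members are high: 53 of the 54 had 15 or more counts in the control libraries alone, and 28 had as many in the inhibitor libraries alone.

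**Figure D1:**
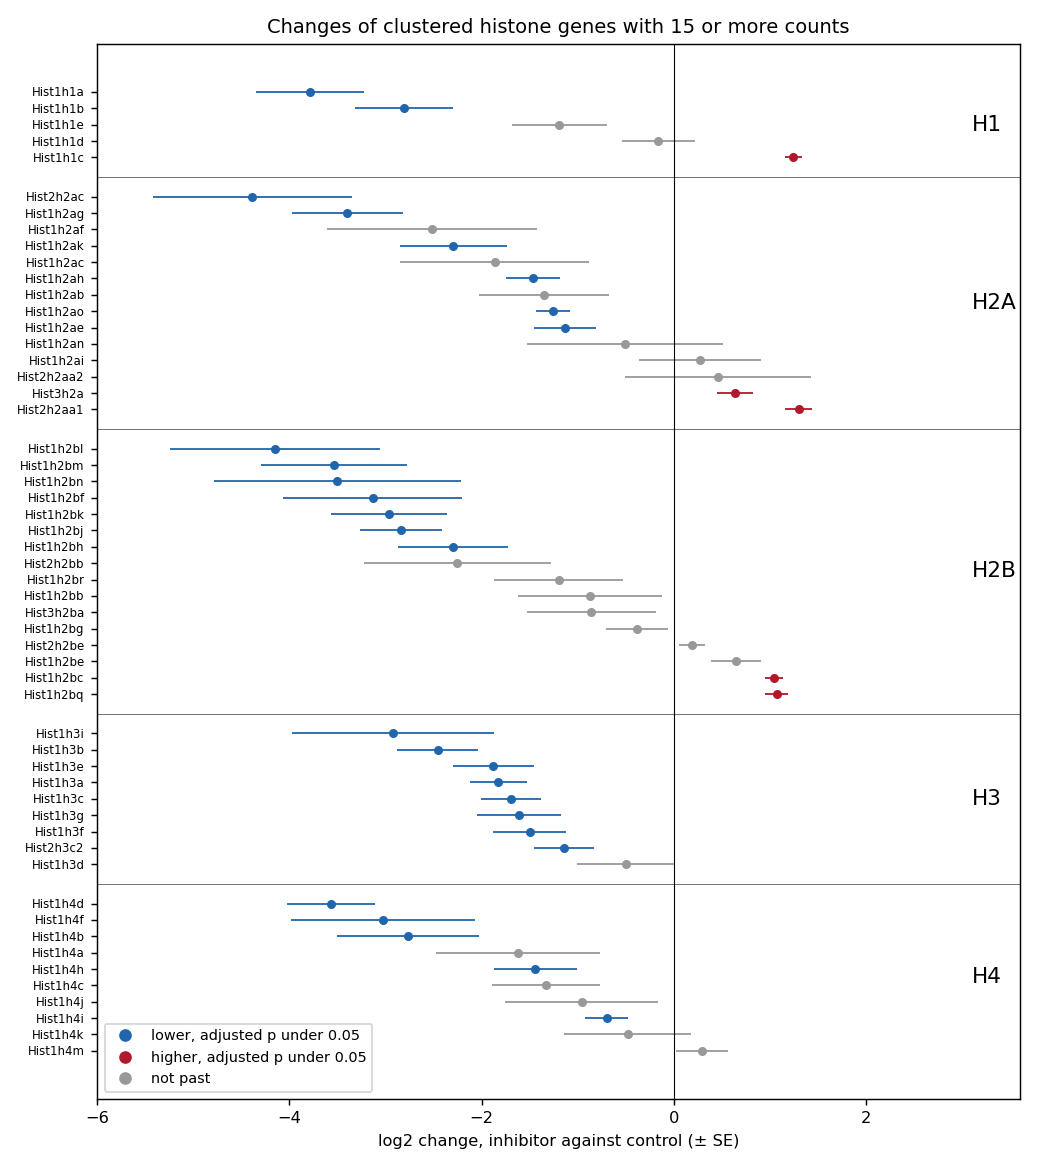
Fitted log2 change (inhibitor against control, horizontal axis) with its standard error for the 54 clustered histone genes with 15 or more counts, grouped by class and coloured by the call at an adjusted p of 0.05. The 8 H3 genes called and the 28 lower members in all sit left of 0, and the 5 higher members, 1 of H1 and 2 each of H2A and H2B, sit between 0.64 and 1.30.

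The sum over all members hid these opposite movements. Summed over the 69 genes, the level was 139, 128 and 131 CPM in the control libraries against 168, 168 and 161 CPM with the inhibitor, a ratio of 1.25. The sum was therefore higher in every inhibitor library although most members were lower. The 5 higher members went from 56.7 ± 1.9 to 125 ± 3.6 CPM (mean ± SD, n = 3 libraries), and the other 64 went from 75.9 ± 4.7 to 40.2 ± 3.5 CPM, which is 1.89-fold lower. The same 5 genes held 42.7% of the members' counts in the control group and 75.8% in the inhibitor group. No test was made of these sums, since the 5 were chosen by their change.

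By class, H1 summed to 29.6 ± 2.1 CPM in the control and 59.4 ± 3.2 CPM in the inhibitor libraries, and H2B to 43.0 ± 1.1 and 63.5 ± 2.6 CPM. H3 went the other way, from 15.7 ± 1.6 to 5.02 ± 0.56 CPM (3.13-fold lower), and so did H4, from 16.1 ± 3.9 to 8.62 ± 0.37 CPM (1.86-fold lower). H2A was nearly level, at 28.3 ± 1.5 and 29.0 ± 1.9 CPM. Control and inhibitor libraries did not overlap for H1, H2B, H3 and H4, and they overlapped for H2A. Without Hist1h1c the H1 sum was 2.92-fold lower, and without its 2 higher genes the H2A sum was 2.67-fold lower. Without its 2 higher genes the H2B sum was 21.1 ± 0.5 against 18.0 ± 3.3 CPM, a difference within the spread of the inhibitor libraries.

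**Figure D2:**
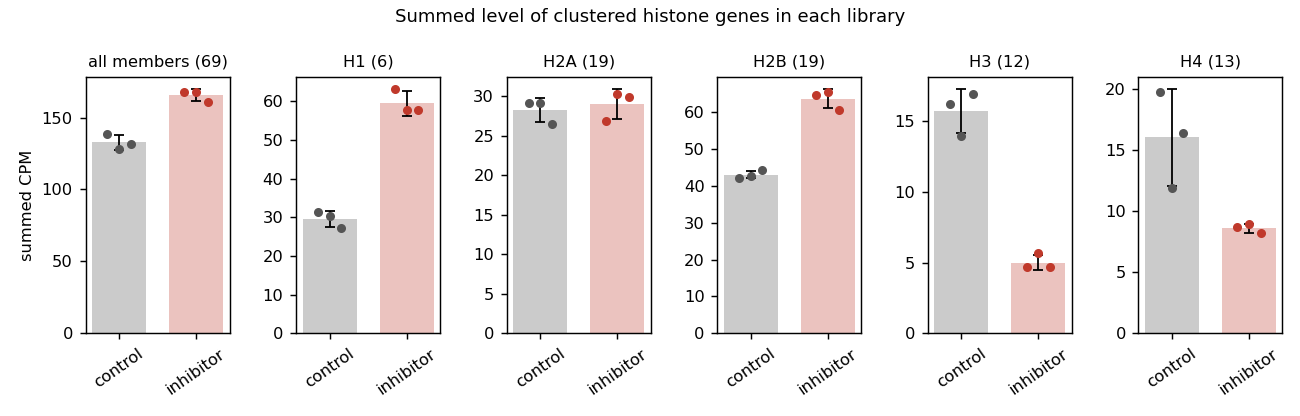
Summed CPM (vertical axis, from 0) over all 69 members and over each class, with 1 point per library, bars at the mean of 3 libraries and error bars of 1 SD. The H1 and H2B sums are higher in the inhibitor libraries, the H3 and H4 sums are lower, and the H2A sums overlap.

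H3 genes encode the subunit whose tail carries many of the known histone marks. Of their 9 tested members, 8 were called lower and none higher, with a median log2 change of -1.69. Beside this and the class counts below stand 18.2% lower and 18.9% higher of all genes tested. Hist1h3a (chr13:23761885-23762386, minus strand) had 70, 50 and 84 counts in the control libraries and 18, 22 and 10 in the inhibitor libraries, a log2 change of -1.83 ± 0.30 (SE). Hist1h3c had 55, 59 and 65 counts against 11, 25 and 12 (-1.69 ± 0.31), and Hist2h3c2 on chromosome 3 had 36, 38 and 53 against 19, 19 and 12 (-1.14 ± 0.31). In each of these 3 genes every inhibitor library was below every control library. Hist1h3i, an H3 gene of low count, showed the largest fitted fall of the class, with 5, 10 and 5 counts against 0, 2 and 0 (-2.93 ± 1.05), and its call was lost without inhibitor library 1 or 3 (adjusted p = 0.12 and 0.109) and without control library 2, where its total fell under the count minimum. Hist1h3d was the H3 gene that did not pass, with 11, 14 and 12 counts against 12, 5 and 6, and its groups overlapped. Just under the count minimum, Hist2h3b had 3, 7 and 4 control counts and 0 in every inhibitor library. The exact 95% interval of its ratio for counting error starts at 2.90-fold lower. A floor of 3 counts over the inhibitor group gives 4.08-fold lower, but this leaves out the error of the control counts. Hist2h3b was named after its values were seen.

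H4 genes all encode the same short protein, which pairs with H3. Of the 10 tested, 5 were called lower and none higher, with a median log2 change of -1.39. Hist1h4d (chr13:23581568-23581969, plus strand) had 41, 30 and 56 counts in the control libraries and 3, 4 and 2 in the inhibitor libraries, a log2 change of -3.57 ± 0.46. The ratio of its counts is 12.4-fold lower, with an exact 95% interval for counting error from 6.3- to 27.6-fold. Hist1h4i, the most abundant H4 gene, had 182, 108 and 146 counts against 114, 66 and 57. Its groups overlapped, the change was -0.70 ± 0.22, and the call was lost without inhibitor library 2 or 3 (adjusted p = 0.0907 and 0.11). Hist1h4m had 44, 40 and 31 counts against 33, 49 and 41 (0.29 ± 0.27), so the groups overlapped and no change was called. Its near-identical copy Hist1h4n is listed at 0 in all libraries.

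H2A genes encode the partner of H2B, and their 14 tested members split into 6 lower, 2 higher and 6 not past, with a median of -1.31. Hist1h2ao (chr13:21810367-21810918, plus strand) had 154, 162 and 147 counts in the control libraries and 56, 46 and 67 in the inhibitor libraries (-1.26 ± 0.18). Hist2h2ac, whose product is also an H2A, had the largest fitted fall of all members, with 12, 5 and 15 counts against 0, 1 and 0. Both sets of values are separate between groups, but the Hist2h2ac fold rests on 1 inhibitor count, and its ratio of 28.0-fold lower has an exact 95% interval from 4.68- to 1140-fold.

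The 2 higher H2A genes were Hist2h2aa1 and Hist3h2a. Hist2h2aa1 (chr3:96245497-96246052, plus strand) had 158, 125 and 123 counts in the control libraries and 277, 308 and 287 in the inhibitor libraries, a log2 change of 1.30 ± 0.14 and the largest rise among the members. Hist3h2a, from the small cluster on chromosome 11, had 56, 91 and 87 counts against 129, 101 and 90 (0.64 ± 0.19). Its CPM values did not overlap, but the closest libraries differed little, and its call was lost without inhibitor library 1 (adjusted p = 0.0704).

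H2B genes had 16 tested members, of which 7 were called lower, 2 higher and 7 were not past, with a median of -1.73. Hist1h2bc (chr13:23684199-23692480, plus strand) was the most abundant, with 261, 281 and 320 counts in the control libraries and 591, 479 and 485 in the inhibitor libraries (1.04 ± 0.10). Hist1h2bq (chr13:21806412-21810199, minus strand) had 168, 140 and 173 counts against 327, 271 and 287 (1.07 ± 0.12). Both of these genes were about 2.1-fold higher, and every inhibitor library was above every control library. Hist2h2be, an H2B gene with a long transcript, had 158, 179 and 186 counts against 171, 196 and 153 (0.19 ± 0.14), with overlapping groups. At the other end, Hist1h2bl had 14, 4 and 9 counts against 1, 0 and 0, a ratio of 23.6-fold lower whose exact 95% interval runs from 3.89- to 967-fold. Its call was lost without control library 1, where its total fell under the count minimum.

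H1 genes encode the linker histones that help to compact chromatin, and their 5 tested members went in both directions. Hist1h1c (chr13:23738807-23739531, plus strand) was the most abundant member, with 524, 504 and 460 counts in the control libraries and 1205, 959 and 934 in the inhibitor libraries. Its log2 change was 1.24 ± 0.09, the groups were far apart, and its share of all member counts went from 18.3 to 34.9%. Hist1h1a (chr13:23763668-23764412, plus strand), another linker gene some way along the same cluster, had 42, 34 and 23 counts against 4, 1 and 1 (-3.79 ± 0.56), and its groups were as clearly apart in the other direction. Hist1h1d had 20, 17 and 34 counts against 14, 17 and 24 (-0.16 ± 0.38), its groups overlapped, and its sign turned without control library 3 (0.16), without inhibitor library 1 (0.06) and without control libraries 1 and 3 together (0.28). Hist1h1b, also lower, and Hist1h1e, not past, make up the class.

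**Figure D3:**
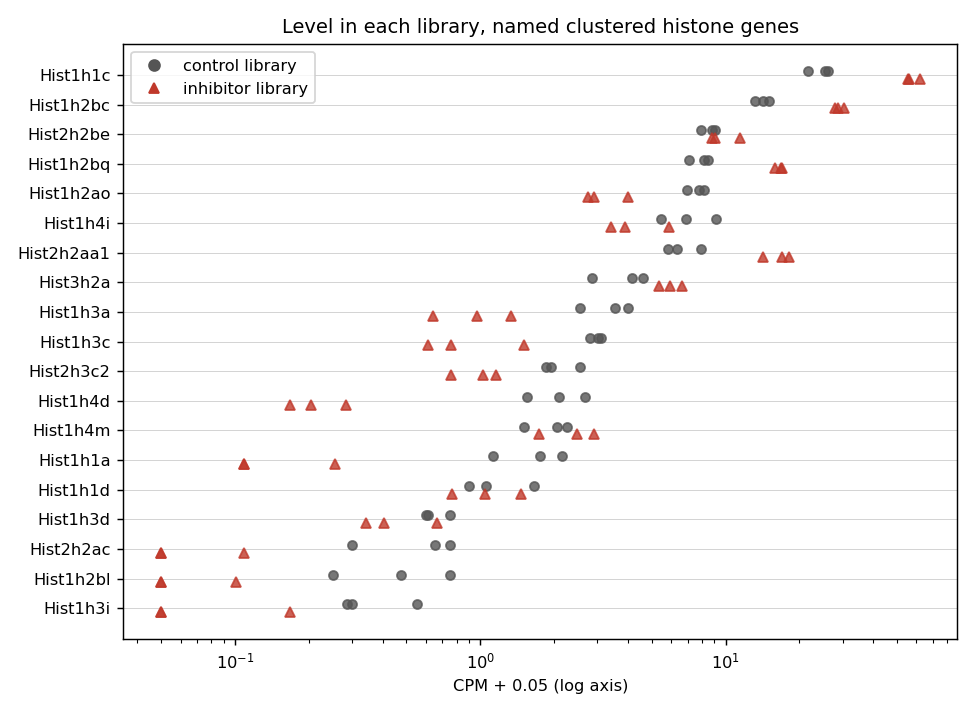
Level of the 19 named members in each library (CPM + 0.05, log axis), with circles for control and triangles for inhibitor libraries, ordered by the control mean. Hist1h1c, Hist1h2bc, Hist1h2bq and Hist2h2aa1 have all triangles right of the circles, whereas Hist1h3a, Hist1h4d and Hist1h1a have all triangles to the left.

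Per kilobase of the deposited transcript length, which lets genes be compared, Hist1h1c was highest in both groups, at 33.6 CPM per kb in the control and 79.5 in the inhibitor group. Hist1h2bc followed, at 30.0 and 61.8 CPM per kb. Hist1h4i was at rank 3 of the 54 in the control group (17.7 CPM per kb) and at rank 6 in the inhibitor group (10.8 CPM per kb). Hist1h4d went from rank 10 (5.60 CPM per kb) to rank 31 (0.458 CPM per kb), and Hist1h1a from rank 24 (2.19 CPM per kb) to rank 45 (0.144 CPM per kb). The higher calls were therefore among the most abundant members. Of the 13 members with 200 or more counts, 5 were lower, 5 higher and 3 not past, and of the 41 with fewer, 23 were lower, none was higher and 18 were not past. A call takes a larger change at low counts.

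In the Hist1 cluster on chromosome 13, which held 46 of the tested members, 26 were called lower and 3 higher. For comparison, 18.2% of all genes tested were called lower and 18.9% higher. The Hist1 genes lie in 3 groups along the chromosome. The middle group, 5 genes that include Hist1h4i, Hist1h2ag and Hist1h2ah, was called lower throughout, with a median log2 change of -2.84. The group on the side of Hist1h2ao and Hist1h2bq had 7 lower and 1 higher of 14 (median -1.23), and the group with Hist1h1c and Hist1h2bc had 14 lower and 2 higher of 27 (median -1.61). In the Hist2 cluster on chromosome 3, 2 of 6 were lower and 1 higher. Neither tested Hist3 gene on chromosome 11 was called lower, and the single Hist4 gene, Hist4h4, had too few counts. Genes that lie close together could differ: Hist1h1c and Hist1h3c (chr13:23745042-23745521, minus strand) were called in opposite directions.

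Among the 8 head-to-head pairs with both genes tested, 3 had both genes lower, 3 had 1 lower and 1 not past, 1 had 1 higher and 1 not past, and 1 had opposite calls. The pair with opposite calls was Hist1h2bq, from 481 to 885 counts over the 3 libraries of a group, and Hist1h2ao, from 463 to 169, which share the 167 bases printed above. Each has a near-identical copy, Hist1h2br for Hist1h2bq and Hist1h2ap for Hist1h2ao. Their counts may therefore not come only from the genes beside these bases. Hist1h2ag and Hist1h2bj, which share 248 bases, went from 112 to 9 and from 132 to 16 counts, and Hist1h2ah and Hist1h2bk, which share 177 bases, from 173 to 55 and from 56 to 6. Hist1h2ah also has near-identical copies, Hist1h2ad, Hist1h2ai and Hist1h2an, so the same limit holds for its counts. Opposite calls were thus seen in 1 pair only. A pair with 1 gene called and 1 not past does not show that its genes differ. The genes of the pairs named here, other than Hist1h2bq and Hist1h2ao, were named after their values were seen.

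**Figure D4:**
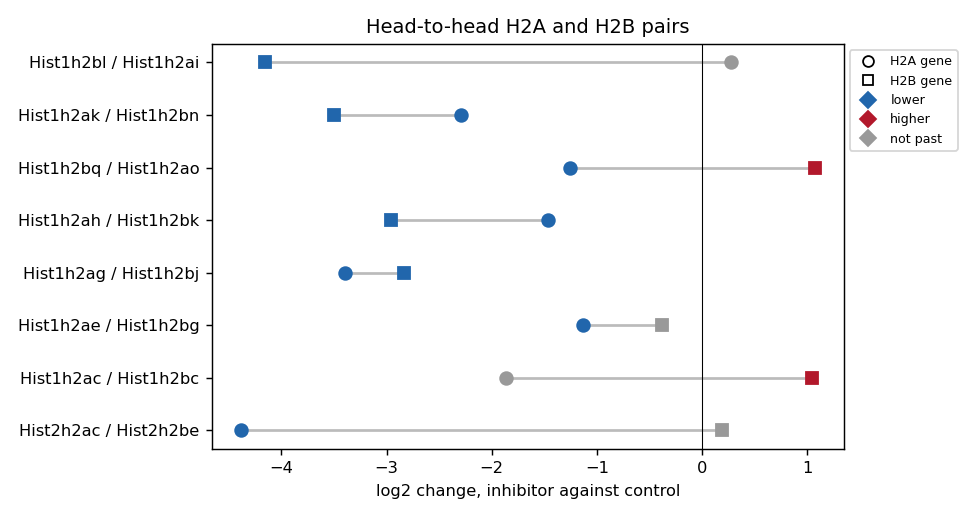
Log2 change (inhibitor against control, horizontal axis) of the H2A gene (circle) and the H2B gene (square) of each of the 8 head-to-head pairs with both genes tested, coloured by call and joined by a line. Hist1h2bq and Hist1h2ao lie on opposite sides of 0, while Hist1h2ag with Hist1h2bj, and Hist1h2ah with Hist1h2bk, lie to the left.

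Promoter motifs were counted on both strands in the 300 bases around each start, for the 62 members in the RefSeq table, and the 7 others were Hist1h2al, Hist1h2bc, Hist1h3a, Hist1h3f, Hist2h2be, Hist2h4 and Hist3h2bb-ps. A CCAAT box was in 53 of the 62 (85.5%), against 37.4% of all 32851 promoters, and H4 promoters had it in 3 of 12. A TATAAA was in 35 of the 62 (56.5%), against 13.6%. The octamer ATTTGCAT was in 7 of 18 H2A and 7 of 16 H2B promoters and in no other class, against 1.74% of all promoters. GGTCC was in 11 of 12 H4 promoters, against 45.5%, and AAACACA in 5 of 6 H1 promoters, against 7.18%. TTTCGCGC was in 9 of the 62, all H2A or H2B, against 0.32% of all promoters. Matches are runs of letters and not shown to be bound, and none of these motifs contains another.

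The calls were also split by motif, with no test. The shares over all genes tested were 18.2% lower and 18.9% higher. Of 28 tested members with TATAAA, 14 were lower and 1 higher, and of 22 without it, 12 were lower and 3 higher. Of the H2A and H2B genes, 5 of 12 with the octamer and 8 of 16 without it were lower. Of 7 tested members with TTTCGCGC, which include Hist1h2ag, Hist1h2bj, Hist1h2ah and Hist1h2bk, 5 were lower and none higher, with a median log2 change of -2.84. Of 43 without it, 21 were lower and 4 higher (median -1.33). In Hist1h2ah and Hist1h2bk the match runs across the edge of the stretch printed above, which holds only part of it. Hist1h2ag shares promoter DNA with Hist1h2bj, and Hist1h2ah with Hist1h2bk, so the 7 are not independent of each other. All of these named genes also belong to the middle group of the Hist1 cluster, which has the same median. Motif, position and pairing cannot be told apart for them.

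The annotated end of the transcript was compared with the change, with no test. Of all genes tested, 18.2% were called lower and 18.9% higher, and the members with a poly(A) signal were near these shares. Of the 12 tested members with a poly(A) signal (AATAAA or ATTAAA within the last 40 bases of a GENCODE transcript), 3 were lower, 3 higher and 6 not past, with a median of -0.78. These included Hist1h1c, whose longest transcript runs 840 bases past the stem-loop, Hist3h2a, which runs 1643 bases past it, and Hist1h2bq. Of the 42 without such a signal, 25 were lower, 2 higher (Hist1h2bc and Hist2h2aa1) and 15 not past, with a median of -1.84. Summed over listed members, those with the signal went from 60.2 ± 2.7 to 102 ± 5.7 CPM and those without it from 72.5 ± 3.5 to 63.7 ± 2.2 CPM. Tested members whose stem-loop lies within 100 bases of the annotated end were 12 lower and 1 higher of 17 (median -1.82), and those with it farther from the end 7 lower and 2 higher of 17 (median -1.13). Hist2h2aa1, with 35 bases after its stem-loop and no signal, was the exception among the higher genes in having only a short GENCODE form. These ends are those of GENCODE transcripts, not of the gene models behind the counts. The deposited lengths were short for every higher gene. They were 725 bases for Hist1h1c, 469 for Hist1h2bc, 459 for Hist1h2bq, 508 for Hist3h2a and 556 for Hist2h2aa1. Which form the counts came from is not given by gene-level counts.

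**Figure D5:**
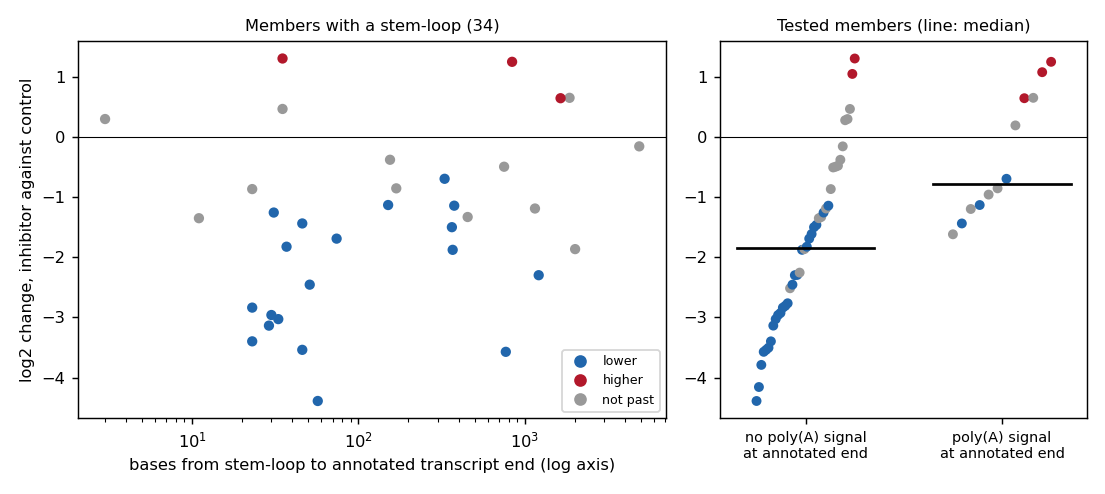
Left, log2 change of the 34 tested members with a stem-loop against the bases from it to the annotated transcript end (log axis). Right, log2 change of the 42 tested members without and the 12 with a poly(A) signal at the annotated end, with lines at medians of -1.84 and -0.78.

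Copies of nearly the same sequence limit what single genes show. In 8 pairs of members, at least 80% of the 50-base words of the member with fewer words are also in the other. This share was 100% for Hist2h2aa1 and Hist2h2aa2, and 97.3% for Hist1h2bq and Hist1h2br. The member with more words can still have its own: 89.2% of the words of Hist2h2aa1 and 88.7% of those of Hist1h2br are in any other member. In some of these pairs the counts fell almost wholly on 1 copy: Hist2h2aa1 had 1278 counts and Hist2h2aa2 20 over the 6 libraries, and Hist1h2bq had 1366 and Hist1h2br 33. Hist1h2ao had 632 and Hist1h2ap none. In others they did not, as for Hist1h2ai with 35 counts and Hist1h2ad with 14. The values of these genes may therefore stand for more than the named copy. Among the 29 tested members that share under 50% of their words with any other, 13 were lower and 3 higher. All genes tested had 18.2% lower and 18.9% higher. The strand of counting is not given, and 25 members overlap another annotated gene, for example Hist3h2a with Trim17, so reads of such partners cannot be told apart.

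Histone variants are also encoded outside the clusters, mostly by genes whose transcripts carry a poly(A) tail. H2afx is an exception, since it also gives a stem-loop transcript without a tail. Of 11 tested, 4 were lower, 1 higher and 6 not past, with a median log2 change of -0.05. Among all genes tested, 18.2% were called lower and 18.9% higher. H2afx, the variant phosphorylated at DNA breaks, had 3501, 3134 and 3366 counts in the control libraries and 2354, 1845 and 1735 in the inhibitor libraries (-0.57 ± 0.07, edgeR adjusted p = 3.6e-06). Cenpa, the centromeric H3, changed by -0.47 ± 0.07 (adjusted p = 7.4e-05), H2afz by -0.29 ± 0.08 (adjusted p = 0.0085) and H3f3a by -0.21 ± 0.06 (adjusted p = 0.013, lost without inhibitor library 2 or 3). H1fx, a linker variant named after its values were seen, was higher at 0.49 ± 0.15, a call lost without control library 3 or inhibitor library 1. Per kilobase, H3f3a stood at 856 and 739 CPM per kb in the control and inhibitor groups, above every clustered gene.

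Genes of S phase were lower in the inhibitor group by smaller amounts. Of 52 tested, 37 were lower and none higher, against 18.2% and 18.9% of all genes tested. Their median log2 change was -0.27. Cdc6, which loads the replicative helicase, had 1414, 1439 and 1614 counts in the control libraries and 942, 820 and 830 in the inhibitor libraries (-0.59 ± 0.06, adjusted p = 1.1e-06). Ung, a uracil glycosylase, changed by -0.77 ± 0.09, Tk1, thymidine kinase, by -0.52 ± 0.07, and Uhrf1, which guides maintenance methylation, by -0.48 ± 0.06. In all 4 the inhibitor libraries were below the control libraries, as in 24.5% of all genes tested. The 4 were named for the smallest p of the list, so separate groups follow largely from that choice. Of the 3 proliferation markers, Mki67 (-0.09 ± 0.08) and Top2a (-0.13 ± 0.06) did not pass and Pcna was lower by 0.18 ± 0.06 on the log2 scale. These values stand beside the histone changes, and their part in them was not tested.

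Of 32 factors that transcribe or process histone transcripts, 10 were lower, 1 higher and 21 not past (median -0.14). The shares over all genes tested were 18.2% lower and 18.9% higher. Slbp, which binds the stem-loops printed above and is also in the S phase list, had 2777, 2924 and 2987 counts in the control libraries and 2349, 1936 and 2040 in the inhibitor libraries (-0.27 ± 0.06, adjusted p = 0.0013). Lsm11, a ring subunit of the U7 snRNP, changed by -0.44 ± 0.10, Srrt by -0.36 ± 0.07 and Cdk2, the S phase kinase that phosphorylates the histone coactivator Npat, by -0.33 ± 0.06. Cstf2, a subunit of the cleavage stimulation factor and named after its values were seen, was higher at 0.19 ± 0.07, a call lost without control library 3 or inhibitor library 2 or 3. Of 30 histone chaperones tested, 16 were lower and none higher (median -0.17). Nasp, which holds H3 and H4, had 3651, 3667 and 3977 counts against 2600, 2265 and 2230 (-0.48 ± 0.05, adjusted p = 1.5e-06). Npm1 and Ssrp1 changed by -0.39 ± 0.06 each and Set by -0.37 ± 0.05.

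Other RNAs that lack a poly(A) tail were read beside the histone genes. Whether they track how much untailed RNA each library holds was not tested. Of 12 listed, 5 had no count and 4 could be tested. None of the tested RNAs was lower and 1 was higher, beside 18.2% and 18.9% of all genes tested. Rn45s had 20039, 3667 and 61656 counts in the control libraries and 3145, 2018 and 1784 in the inhibitor libraries, so all control values were above all inhibitor values (-3.41 ± 1.14, adjusted p = 0.088). Rpph1, the RNA of RNase P, had 80, 41 and 82 against 25, 49 and 47 with overlap, and Rmrp had 19, 1 and 3 against 0, 2 and 0. Malat1, a nuclear RNA with a triple-helix end, was higher, at 18203, 18059 and 21990 against 26120, 28896 and 28089 counts (0.72 ± 0.08, adjusted p = 1.7e-05). Without control library 2, Rn45s, Rmrp and Rpph1 were all called lower.

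The mean centred log2 level of the tested members was 0.66, 0.44 and 0.55 in controls 1 to 3 against -0.62, -0.51 and -0.53 with the inhibitor. Control 2 was the lowest control for the members, for Rn45s and for Rpph1. The other libraries did not keep one order: control 1 was above control 3 for the members but below it for Rn45s. Inhibitor 1 was the lowest of its group for the members and for Rpph1 but the highest for Rn45s. The part of untailed RNA in the histone changes was not tested. With controls 1 and 3 both left out, 42 members could be tested, of which 15 were lower and 4 higher, with a median log2 change of -1.04. Of the 28 lower members, 20 could still be tested and 14 were still called, and 4 of the 5 higher members were. The calls lost among those tested were those of Hist1h2ae, Hist1h3f, Hist1h3g, Hist1h4h, Hist1h4i, Hist2h3c2 and Hist3h2a. The lone control is assumed there to vary like the inhibitor libraries.

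Markers of other cell types moved as well, where 18.2% of all genes tested were called lower and 18.9% higher. All 3 megakaryocyte genes were higher, with a summed level of 898 to 1083 CPM in the control and 2257 to 2369 CPM in the inhibitor libraries, and all 3 plasmacytoid dendritic cell genes were lower, with sums of 243 to 289 CPM and 147 to 155 CPM. Of 5 genes of the neutrophil and monocyte lineage, 3 were lower and 1 higher (7993 to 8629 CPM against 6200 to 6328 CPM). Of 8 stem and progenitor genes, 2 were lower and 2 higher, with sums of 968 to 1011 and 1026 to 1064 CPM. Of 4 erythroid genes 3 were higher, but at a summed level of 0.892 to 0.952 CPM in the control and 6.6 to 7.51 CPM in the inhibitor libraries. Of 2 B cell genes tested 1 was lower and the other did not pass. The part of these markers in the histone changes was not tested.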

How the data were processed

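The deposited files of the 3 control and 3 inhibitor libraries gave read counts per RefSeq gene symbol and an RPKM column, per the file headers. The RPKM values deposited by the authors were used only to check the counts, whose sums they exceeded by 0.22 to 8.68%. The build was mm10 and bcl2fastq 2.20 was named, per the submitters' processing notes. For the aligner, the counter and the strand, nothing was given in the sources used here. Genes with 15 or more counts over the 6 libraries (14369) were tested on the deposited counts with edgeR 4.0.16 (robust quasi-likelihood, TMM, R 4.3.3), with Benjamini-Hochberg adjustment over all of them and a threshold of 0.05. Levels are TMM-scaled CPM, per kilobase where genes are compared. Ratios of counts have exact conditional intervals.

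The members, gene lists and tests were chosen with earlier results of these data known. Named were the 3 members of each class with most counts, the largest fall and rise of each class, every higher member, and up to 4 genes with the smallest p of each list. Sequences were read with Python 3.11.15 from GENCODE M21, where 24264 of the 25033 genes matched by accession and 435 by symbol, and from RefSeq promoters. Protein sequences were not used here. Alternatives were RLE, other filters, a replicate block, leaving out each library, DESeq2 1.42.0, limma-voom (limma 3.58.1) and an adjusted p of 0.1. Leaving out controls 1 and 3, a GC and length correction, and summing near-identical copies were chosen after seeing the data. The procedure was tested on simulated data. Replicates differed by more than sampling noise (chi-square over its degrees of freedom 3.04 to 16.8 within groups).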

Additional observations from a re-analysis of the deposited data

How the results depend on the processing

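The 5 higher calls were kept in all settings but 2, without inhibitor library 1 and without controls 1 and 3 together, where 4 were kept, and no call turned direction. The number of lower members was 28 and became 16 of 25 tested under the stricter filter on low counts, which leaves fewer genes, and 15 without controls 1 and 3 together. Their median log2 change of -1.45 became -1.25 under the stricter filter, -1.61 with limma-voom, -1.28 with the GC and length correction and -1.04 without controls 1 and 3; apart from the filter, the cause was not tested. Leaving out each library in turn gave 24 to 27 lower and 4 to 6 higher members, a median of -1.71 to -1.32 and a log2 ratio of the members' sum of 0.295 to 0.353 (0.32 with all libraries, 0.37 without controls 1 and 3). In every such fit, 20 of the 28 lower and 4 of the 5 higher members were called. The others, each lost without at least 1 library, were Hist1h2ae, Hist1h2bf, Hist1h2bl, Hist1h2bn, Hist1h3i, Hist1h4f, Hist1h4h, Hist1h4i and Hist3h2a. The context lists held 3 higher genes, which became 5 with the replicate block, 0 without controls 1 and 3, and 2 to 5 when 1 library was left out, and their lower genes then numbered 55 to 80. Signs turned for Hist1h1d (0.158 without control replicate 3, 0.0607 without inhibitor replicate 1 and 0.279 without controls 1 and 3, with -0.44 without inhibitor replicate 3 as the lowest value) and for Rpph1 (0.153 without controls 1 and 3), neither of which was called. The GC and length correction turned the split of all genes from 2622 lower and 2721 higher to 4189 and 2369, and moved their median to -0.0657. Whether the replicate numbers pair the libraries is not stated. Correlations of same-numbered deviations were 0.0321, -0.0135 and 0.018, and so few libraries cannot decide it. With the number as a replicate block 29 members were lower and 6 higher, which include the 28 and 5. Depth limits the genes of low count: 7 of the lower members had 3 or fewer inhibitor counts in all.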
